A study of Canis lupus familiaris with 29 samples.

Results

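EEF1A1 (ENSCAFG00000014627, chromosome 3) and the locus ENSCAFG00000018586 (chromosome 4), which has no symbol, are described here in lymph nodes of dogs with large B-cell lymphoma. These 2 of the 24580 genes of the deposited expression table were chosen by 2 measures together. Both are on the study's list of 11 genes whose expression differed between Day 0 and Day 4 in placebo-treated dogs, and both span 1390 bases. ENSCAFG00000018586 is also on the study's list of 19 genes for the valspodar group, and 2 genes in all are on both lists. In the CanFam3 genome the study places EEF1A1 at chr3:60899869-60901258 and ENSCAFG00000018586 at chr4:67701613-67703002. The span is 1390 bases if both ends are counted and 1389 if the start is counted from 0, which the study's listing does not state; 1389 bases hold 463 whole codons. Exons, introns and untranslated regions of the loci were not examined, because no annotation of this build was used.

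EEF1A1 encodes eukaryotic elongation factor 1 alpha 1, the GTP-binding protein that carries aminoacyl-tRNA to the ribosome during each cycle of elongation. It is among the most abundant proteins of dividing cells, and its mRNA has a 5′ terminal oligopyrimidine tract, which couples its translation to growth signals. Mammalian genomes hold many intronless copies of EEF1A1 made by reverse transcription of its mRNA, so a short read from one such copy can match several places in the genome. A symbol in an annotation of such a family is therefore the name of one locus and need not mark the gene that makes most of the protein. In a RefSeq gene table of another dog assembly, the 1 gene with the symbol EEF1A1 was not on chromosome 3 or 4. Here EEF1A1 means the locus ENSCAFG00000014627, to which the study gives that symbol. Whether that locus is the source gene or a copy was not tested.

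The 29 libraries came from 15 pet dogs with newly diagnosed large B-cell lymphoma. The 6 dogs of the placebo group, which received capsules without the drug, gave 6 libraries before treatment (Day 0) and 5 libraries on the fourth day (Day 4). The 9 dogs of the valspodar group received 7.5 mg/kg of valspodar, which blocks the efflux pump ABCB1, by mouth at each dose and gave 9 libraries on each day. Both days were available from 14 dogs, and PD04 (placebo) had a Day 0 library only. The labels gave ages of 5.3 to 10.4 years for 5 placebo dogs and 3.8 to 11.6 years for the 9 valspodar dogs. The dogs were of several breeds and carried tumors that arose on their own, and a biopsy of a lymph node holds tumor cells together with other cells. The letters of a dog's name give the site where it was treated (MN, University of Minnesota; PD, Purdue University; PENN, University of Pennsylvania).

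Expression was given as FPKM, which counts fragments relative to the exon length of a gene and to the total mapped in the library, so levels of the 2 genes can be compared per length. The depth of single libraries in reads is unknown. A relative depth, read from the steps between low values of 2909 genes, was 0.291 in MN02 at Day 4 and between 0.847 and 1.84 in the other libraries. The Day 0 samples were wedge biopsies and those of Day 4 were tru-cut biopsies: the day and the kind of biopsy cannot be told apart. Defining markers of B cells could not be checked, since the table names genes by identifier only and 1 of the 28 fixed marker symbols (CSF3R) could be matched to one. Of the 28 libraries from paired dogs, 25 were most similar, by Spearman correlation over genes, to the other library of the same dog.

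EEF1A1 differed widely between dogs and less between the days of a dog. It was between 1.32 and 7.21 FPKM in 19 libraries and between 24.7 and 817 FPKM in the other 10, with no library between 7.21 and 24.7 FPKM. A dividing line of 10 FPKM, set after the values were seen, is used to call these the lower and the upper level. The line is a convention: the upper values were themselves spread, and the steps from 24.7 to 76.8 FPKM and from 242 to 817 FPKM were about as wide on a log scale as the step across the line. In a bulk sample, fewer cells that express a gene and less RNA per cell cannot be told apart. The study's quantification divided a read that mapped to several places among those places. The part of shared reads in the level of either gene was not tested.

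In the placebo group, EEF1A1 at Day 0 was 817 FPKM in MN08, 234 in MN05, 121 in PENN04, 5.23 in PENN05, 3.58 in PD04 and 2.58 in MN09. At Day 4 it was 207 FPKM in MN05, 78.5 in PENN04, 24.7 in PENN05, 3.50 in MN09 and 3.44 in MN08. On each day 3 placebo libraries were at the upper level, but they were not from the same 3 dogs: MN08 was at the upper level at Day 0 only and PENN05 at Day 4 only.

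In the valspodar group, EEF1A1 at Day 0 was 242 FPKM in PD03 and 233 in PD05. In the other 7 dogs of the group it was 7.21 (PD01), 5.56 (MN02), 3.11 (MN10), 2.54 (PENN03), 1.96 (MN03), 1.76 (MN06) and 1.48 FPKM (MN07). At Day 4 it was 189 FPKM in PD05, 76.8 in PD03, 5.80 in PD01, 4.47 in MN02, 3.67 in MN10, 2.24 in MN03, 1.60 in MN07, 1.55 in PENN03 and 1.32 in MN06. The same 2 valspodar dogs, PD03 and PD05, were at the upper level on both days, and the groups overlapped at both levels on both days.

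**Figure D1:**
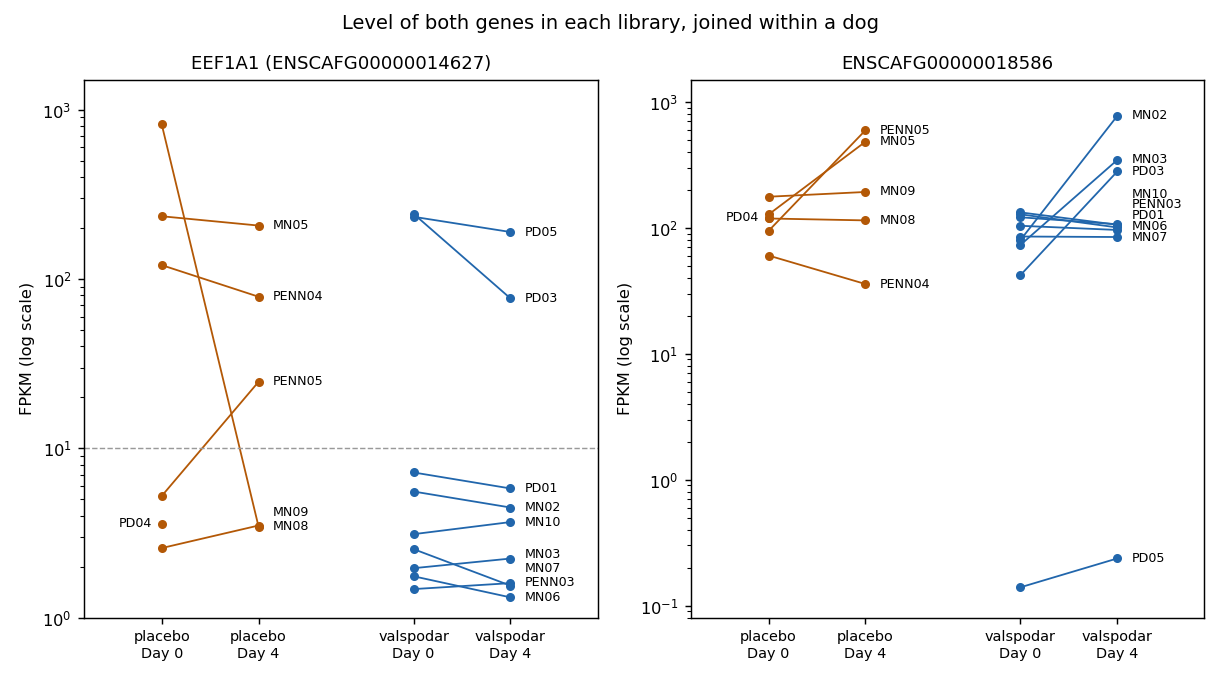
FPKM on a log scale of EEF1A1 (left) and ENSCAFG00000018586 (right) in each library, with the 2 days of a dog joined by a line (orange, placebo; blue, valspodar; PD04 has Day 0 only). The dashed line marks 10 FPKM: 10 EEF1A1 values lie above it and 19 below, and the 2 values of PD05 lie far below all others for ENSCAFG00000018586.

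Of the 14 paired dogs, 12 had EEF1A1 at the same level on both days, 4 at the upper level (MN05, PENN04, PD03 and PD05) and 8 at the lower. At Day 0 the upper level was found in 2 of 8 dogs from Minnesota, 2 of 4 from Purdue and 1 of 3 from Pennsylvania. It was found in 2 of 5 Golden Retrievers, 1 of 3 Vizslas and 0 of 3 dogs labelled Labrador Retriver. It was also found in the only Beagle and in the dog whose breed is labelled NR, and not in the only English Bulldog or the only Standard Poodle, so neither a site nor a breed held all the dogs at the upper level. In the 8 dogs at the lower level on both days, EEF1A1 at Day 0 and Day 4 had a Pearson r of 0.89 and a Spearman rho of 0.88 on log2(FPKM + 1), and r was 0.73 without PD01 and MN02, the dogs farthest from the median. These dogs were chosen by their level, so the correlation is a description with no test.

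ENSCAFG00000018586 was between 42.0 and 177 FPKM in 14 of the 15 dogs at Day 0 and spread more widely at Day 4. In the placebo group it was 177 FPKM in MN09 at Day 0, 128 in MN05, 121 in PD04, 119 in MN08, 94.5 in PENN05 and 60.2 in PENN04. At Day 4 it was 595 FPKM in PENN05, 483 in MN05, 193 in MN09, 115 in MN08 and 35.8 in PENN04. PENN05, MN05 and, by a small margin, MN09 at Day 4 lay above every placebo library of Day 0, MN08 was within that range and PENN04 below it.

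In the valspodar group ENSCAFG00000018586 at Day 0 was 133 FPKM in PENN03, 128 in PD01, 121 in MN10, 104 in MN06, 85.3 in MN07, 79.9 in MN02, 73.1 in MN03, 42.0 in PD03 and 0.140 in PD05. At Day 4 it was 774 FPKM in MN02, 346 in MN03, 280 in PD03, 107 in MN10, 106 in PENN03, 101 in PD01, 96.1 in MN06, 84.5 in MN07 and 0.237 in PD05. MN02, MN03 and PD03 at Day 4 were above all valspodar libraries of Day 0, 5 dogs were between 84.5 and 107 FPKM, and PD05 was near 0 on both days.

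Over both groups, 5 libraries, all of Day 4, held ENSCAFG00000018586 at 280 to 774 FPKM. The highest other library was at 193 FPKM. The highest value, in MN02, came from the library with the lowest relative depth. The same library held ENSCAFG00000029302, the other gene on both of the study's lists, at 1184 FPKM, while no other library was above 62.3 FPKM for that gene.

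Genes known from macrophages (C1QB, C1QC, CD5L, CTSK) and neutrophils (CSF3R, ITGAM, MMP9, SERPINA1) were summed from the study's own lists, which were made on these samples. The summed macrophage genes were at 394 FPKM in MN02, 558 in MN03, 232 in PENN05, 146 in MN05 and 110 in PD03, the 5 libraries with high ENSCAFG00000018586. They ranged from 31.2 to 241 FPKM in placebo libraries at Day 0, 53.9 to 328 at Day 4, 61.4 to 393 in valspodar libraries at Day 0 and 40.3 to 771 at Day 4. PD05 at Day 4, where ENSCAFG00000018586 was near 0, had the highest sum, 771 FPKM. The summed neutrophil genes were between 4.43 and 47.1 FPKM in those 5 libraries. They ranged from 5.10 to 70.3 FPKM in placebo libraries at Day 0, 4.999 to 332 at Day 4, 0.557 to 55.1 in valspodar libraries at Day 0 and 2.16 to 47.1 at Day 4. The part of these cell types in the level of either gene was not tested.

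The sum of the 2 genes was not constant across libraries or days, and the gene that made up most of it differed between dogs. The sum ranged from 75.1 FPKM (MN03 at Day 0) to 935 FPKM (MN08 at Day 0), with a median of 135 FPKM over the 29 libraries. The share of EEF1A1 in the sum ranged from 0.575% (MN02 at Day 4) to 99.9% (PD05 at Day 0). PD05 and PENN04 had most of the sum from EEF1A1 on both days: 99.9% and 99.9% in PD05, and 66.7% and 68.7% in PENN04. MN05, MN08 and PD03 did so at Day 0 only, with shares of 64.8%, 87.3% and 85.2% at Day 0 and 30.0%, 2.92% and 21.5% at Day 4. In the dogs where EEF1A1 stayed under 10 FPKM, its share was at most 6.50%. The coefficient of variation over the 29 libraries was 0.938 for the sum, 1.07 for ENSCAFG00000018586 and 2.09 for EEF1A1, and the median was 0.272 over the 11677 genes whose mean reached 1 FPKM. By this measure the sum was less variable than either gene and more variable than most genes. A sum of 2 positive values can have a lower coefficient of variation than its parts when they are unrelated, so no link between the genes follows.

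**Figure D2:**
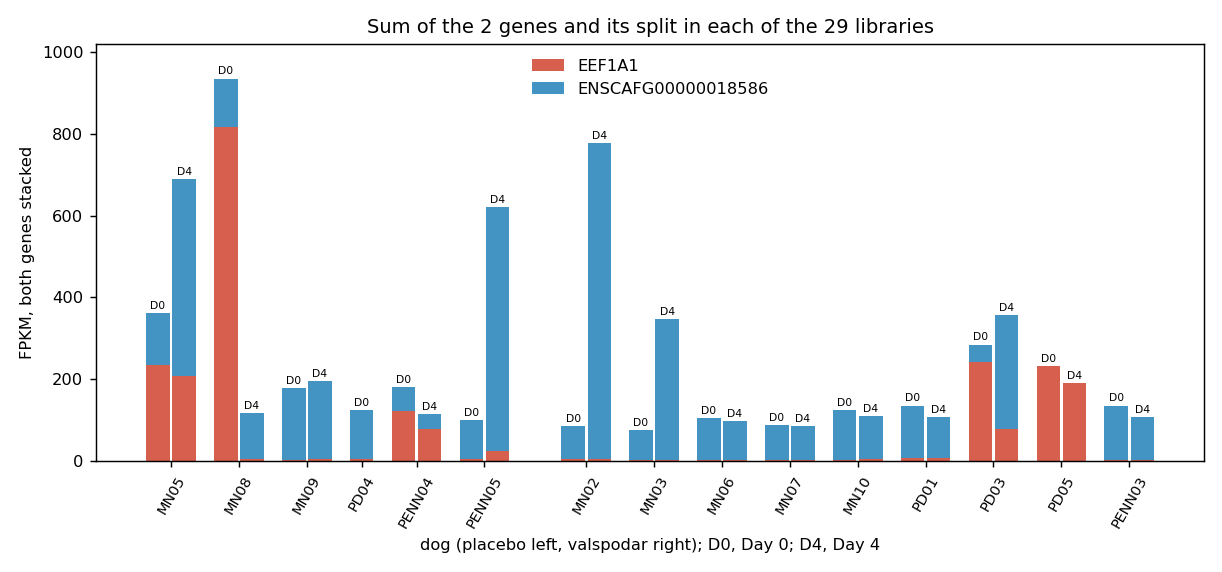
FPKM of EEF1A1 (red) and ENSCAFG00000018586 (blue) stacked for each library, with the placebo dogs on the left and the valspodar dogs on the right (D0, Day 0; D4, Day 4). The stacks range from 75.1 to 935 FPKM, and PD05 is the dog whose stacks are almost wholly EEF1A1 on both days.

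Within dogs, the 2 genes moved in opposite directions in 6 of 14 and in the same direction in 8. This was so in 1 of 5 placebo dogs and 5 of 9 valspodar dogs, and several of the differences were under 1 FPKM. In PD03 EEF1A1 was lower by 166 FPKM and ENSCAFG00000018586 higher by 238 FPKM at Day 4, and the sum went from 284 to 357 FPKM. In MN05 ENSCAFG00000018586 was higher by 355 FPKM at Day 4, while EEF1A1 changed from 234 to 207 FPKM. In MN08 the sum went from 935 to 118 FPKM, because EEF1A1 went from 817 to 3.44 FPKM and ENSCAFG00000018586 stayed at 119 and 115 FPKM. PENN05 had more of both genes at Day 4, and PENN04 had less of both. Losses of one gene were thus not matched in size by gains of the other in these dogs.

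The 2 libraries of MN08 were each other's most similar library, with a Spearman rho of 0.970 over genes. The summed neutrophil genes in them were 70.3 FPKM at Day 0 and 83.6 FPKM at Day 4, and the summed macrophage genes were 145 and 116 FPKM.

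**Figure D3:**
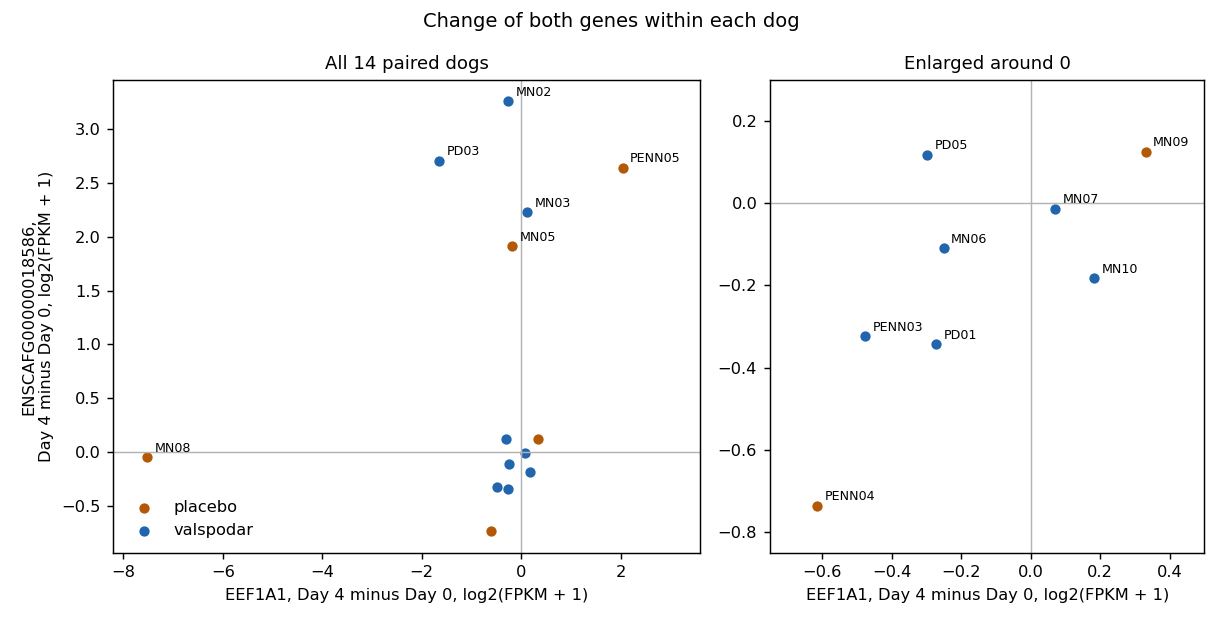
Difference between Day 4 and Day 0 in log2(FPKM + 1) for EEF1A1 (horizontal axis) and ENSCAFG00000018586 (vertical axis) in each of the 14 paired dogs, with the region around 0 enlarged on the right (orange, placebo; blue, valspodar). MN08 lies far to the left at -7.52 for EEF1A1 with -0.05 for ENSCAFG00000018586, and 5 dogs lie above 1.9 on the vertical axis.

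The contrast of Day 4 with Day 0 in the placebo group chose both genes, so their values in it are a description with no test. The mean EEF1A1 level was 197 ± 317 FPKM (SD, n = 6) at Day 0 and 63.4 ± 85.8 FPKM (SD, n = 5) at Day 4, and the difference on log2(FPKM + 1) was -0.59. Over the 5 paired dogs the differences summed to -863 FPKM, of which MN08 gave -813 FPKM. Without MN08 the difference on the log2 scale turned to 0.92, and it was -1.19 without PD04 and -1.12 without PENN05. ENSCAFG00000018586 was at 116 ± 38.5 FPKM (SD, n = 6) at Day 0 and 284 ± 242 FPKM (SD, n = 5) at Day 4, a difference of 0.75 on the log2 scale, which was 0.29 without PENN05, 0.45 without MN05 and 1.17 without PENN04. In the limma fit of this contrast over 11677 genes, 0% passed an adjusted p-value of 0.05, and 3.68% had an unadjusted p under 0.05.

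In the valspodar group the mean ENSCAFG00000018586 level was 85.1 ± 43.3 FPKM (SD, n = 9) at Day 0 and 210 ± 236 FPKM (SD, n = 9) at Day 4, and the difference on the log2 scale was 0.82. This contrast chose that gene, so no test is given. The gene was higher at Day 4 in 4 dogs and lower in 5, and without MN02 the difference was 0.51. The sum of the 2 genes was higher at Day 4 in 3 of the 9 dogs and lower in 6, with a mean difference of 0.49 ± 1.28 (SD, n = 9) on log2(sum + 1) and a median difference of -0.11. The mean difference was 0.16 without MN02 and 0.28 without MN03. The 3 dogs with a higher sum were MN02, MN03 and PD03.

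EEF1A1 was not chosen by its values in the valspodar group, where it was at 55.4 ± 103 FPKM (SD, n = 9) at Day 0 and 31.9 ± 63.9 FPKM (SD, n = 9) at Day 4. The 2 days overlapped over most of their range: PD03 and PD05 at Day 0 were above every Day 4 library, and MN06 at Day 4 was below every Day 0 library. The difference was -0.31 on the log2 scale (SE 1.10, 95% interval -2.63 to 2.01, limma adjusted p = 1), with lower values at Day 4 in 6 of 9 dogs. With the dog as a block the standard error was 0.17 and the limma adjusted p was 0.506. The difference was -0.15 without PD03, the dog with the largest difference. In this contrast 0% of the 11677 genes passed an adjusted p of 0.05, with or without the block. An unadjusted limma p under 0.05 was found for 157 genes (1.34%) without the block and for 1314 genes with it. The difference between the changes of the 2 groups was 0.28 for EEF1A1 and 0.06 for ENSCAFG00000018586 on the log2 scale, valspodar minus placebo. With 1 dog left out it ranged from -1.23 (without MN08) to 0.88 (without PD04) for EEF1A1 and from -0.35 (without PENN04) to 0.52 (without PENN05) for ENSCAFG00000018586. These values are not tested, since they contain the contrast that chose the genes. Over all genes 0% passed the adjusted threshold, with or without the dog as a block. An unadjusted limma p under 0.05 was found for 81 genes (0.694%) without the block and for 428 genes with it.

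Valspodar-treated and placebo-treated dogs were compared on each day, which asks whether the groups differed before treatment and on it. Both days use libraries of the contrasts that chose the genes: placebo libraries for both genes and, for ENSCAFG00000018586, valspodar libraries too. The values between groups are therefore given as a description, with no test. At Day 0, before any drug, both genes had lower means in the valspodar group. The difference on the log2 scale was -1.89 for EEF1A1 (SE 1.47) and -0.99 for ENSCAFG00000018586 (SE 0.86). The value for EEF1A1 was -0.99 without MN08, and that for ENSCAFG00000018586 was -0.29 without PD05. At this time 0% of the 11677 genes passed, and an unadjusted p under 0.05 was found for 4.31%.

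At Day 4 the difference between the groups was -1.61 for EEF1A1 (SE 1.22) and -0.93 for ENSCAFG00000018586 (SE 1.20). The EEF1A1 difference was -0.84 without MN05, and that of ENSCAFG00000018586 ranged from -0.14 without PD05 to -1.52 without PENN04, with -0.59 without MN05 and -0.51 without PENN05. At Day 4, 0.00856% of the 11677 genes (1 gene, neither of these) passed, and an unadjusted p under 0.05 was found for 4.15%. The comparisons on the 2 days share 14 dogs, and PD04 entered that of Day 0 only.

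**Figure D4:**
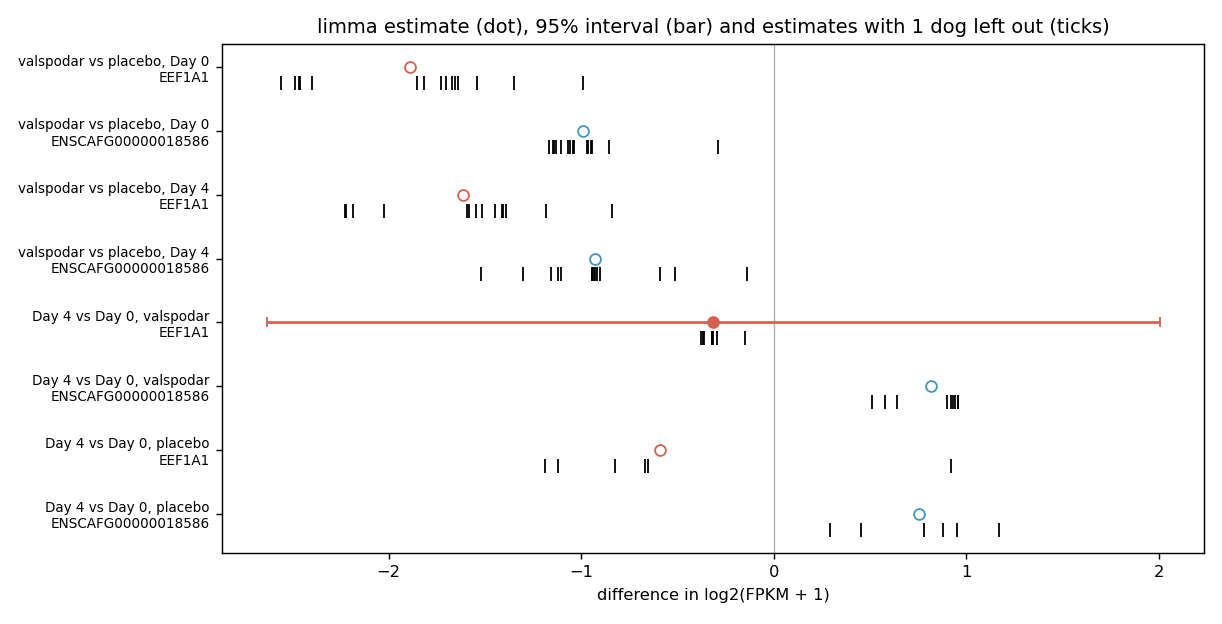
Differences in log2(FPKM + 1) for EEF1A1 (red) and ENSCAFG00000018586 (blue), as dots for the limma estimate and ticks for the estimates with 1 dog left out. The filled dot, EEF1A1 between the days of valspodar dogs, has a bar for its 95% interval (-2.63 to 2.01), and open dots mark comparisons that use libraries of the contrasts that chose the gene. The tick at 0.92 for EEF1A1 in placebo dogs is the estimate without MN08.

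Within the Minnesota dogs (5 valspodar, 3 placebo), the site that holds most dogs, the Day 0 difference was -4.65 for EEF1A1 and -0.60 for ENSCAFG00000018586. At Day 4 it was -2.21 for EEF1A1 and -0.23 for ENSCAFG00000018586. All 5 Minnesota valspodar dogs had EEF1A1 under 10 FPKM on both days. The other sites had too few dogs of each group for a value of their own.

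The sum of the 2 genes and its split were compared between the groups in the same way, without a test. On log2(sum + 1) the level was 7.01 ± 0.65 (SD, n = 9) for the sum in valspodar dogs and 7.83 ± 1.18 (SD, n = 6) in placebo dogs at Day 0. The difference was -0.83, and it was -0.42 without MN08. Within the Minnesota dogs it was -2.05, before any treatment had been given. There the 3 placebo dogs were at 362, 935 and 179 FPKM, and the 5 valspodar dogs between 75.1 and 124 FPKM. At Day 4 the difference over all dogs was -0.52, and -0.40 within Minnesota. With 1 dog left out it ranged from -0.81 (without PENN04) to -0.16 (without MN05), and it was -0.78 without MN02, -0.80 without MN08 and -0.20 without PENN05.

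The share of EEF1A1 in the sum was 23.0 ± 39.6% (SD, n = 9) in valspodar dogs and 38.1 ± 39.0% (SD, n = 6) in placebo dogs at Day 0. The difference of -15.0 percentage points was smaller than the spread within either group. With 1 dog left out it ranged from -24.6 (without PD05) to -5.17 percentage points (without MN08), and it was -22.8 without PD03, -9.68 without MN05 and -9.29 without PENN04. At Day 4 the shares were 15.1 ± 32.5% (SD, n = 9) and 21.5 ± 28.9% (SD, n = 5), a difference of -6.36 percentage points. It turned to 5.45 without PENN04, was -17.0 without PD05, and was -11.3, -11.0, -10.7 and -4.24 percentage points without MN09, MN08, PENN05 and MN05. Within Minnesota the share differed by -48.2 percentage points at Day 0 and by -10.0 at Day 4.

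The levels of ENSCAFG00000018586 and of the sum at Day 0 were compared with those at Day 4 over dogs, as a description, since ENSCAFG00000018586 was chosen on the difference between these values. Over 14 dogs ENSCAFG00000018586 had a Pearson r of 0.79 and a Spearman rho of 0.14. The Pearson r was 0.05 without PD05 and PD03 together, and rho was -0.07 without PD05 alone and 0.25 without PD03 alone. The sum had a Pearson r of -0.04 and a Spearman rho of 0.09, and r was -0.13 without MN08 and MN05. The share of EEF1A1 in the 8 dogs under 10 FPKM on both days had a Pearson r of 0.23 and a Spearman rho of -0.14, and r was 0.11 without MN02 and PD01.

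The relation between the levels of the 2 genes on each day is given for the dogs with EEF1A1 under 10 FPKM, since the other values were few and far apart, as a description. At Day 0 (10 dogs) the Pearson r between the 2 genes was 0.10 and the Spearman rho 0.16, and r was 0.24 without PD01 and MN02. At Day 4 (9 dogs) r was 0.33 and rho 0.43, and r was 0.15 without MN06 and PENN03. With 1 dog left out, rho ranged from -0.05 (without MN03) to 0.38 at Day 0 and from 0.24 (without MN06) to 0.71 (without PD01) at Day 4. At the upper level, PD05 paired 233 FPKM of EEF1A1 with 0.140 FPKM of ENSCAFG00000018586 at Day 0, while MN05 paired 234 FPKM with 128 FPKM.

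The difference between dogs was large for both genes relative to other genes. This is a description with no test, since the libraries include those that chose the genes. The standard deviation between dogs, on log2(FPKM + 1), was 2.55 for EEF1A1, a value reached by 36 of the 11677 genes. It was 1.93 for ENSCAFG00000018586, reached by 100 genes, and 0.31 for the median gene. PD05 was at 0.140 and 0.237 FPKM of ENSCAFG00000018586, while no library of another dog was under 35.8 FPKM. The standard deviation without PD05 was not computed. The median absolute difference between the days of a dog was 0.28 for EEF1A1 and 0.33 for ENSCAFG00000018586 on the same scale. It was 0.34 for the sum of the 2 genes and 0.19 for the median gene. By FPKM within a library, EEF1A1 ranked from 150th to 10801st, with a median rank of 9039, and ENSCAFG00000018586 from 160th to 13176th with a median rank of 846. By median rank the locus without a symbol was the more abundant of the pair per length.

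The genes with the most similar pattern to each were found by Spearman rho over the 29 libraries, which share dogs, among 11676 genes. For EEF1A1 these were ENSCAFG00000004327 (rho 0.75) and ENSCAFG00000018675 (rho 0.72), and ENSCAFG00000013045 was most opposite (rho -0.72). For ENSCAFG00000018586 they were ENSCAFG00000029584 (rho 0.64) and ENSCAFG00000018017 (rho 0.62), and ENSCAFG00000017665 was most opposite (rho -0.65). EEF1A1 was 7449th in that order for ENSCAFG00000018586, with a rho of -0.08. The identifiers named here were not paired with symbols.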

How the data were processed

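According to the study's methods, the authors trimmed paired-end reads (Trimmomatic 0.33), mapped them to CanFam3 (HISAT2 2.0.2), quantified each library with Cuffquant of Cufflinks 2.2.1, dividing reads that map to several places, and deposited FPKM values made by Cuffnorm with its classic method. Libraries were not pooled. FPKM values give no read counts, so no count test or counting interval was made.

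The deposited table holds 24580 genes, of which 5823 are at 0 in every library. Groups, dogs and days came from the labels. Differences were fitted with limma 3.58.1 (R 4.3.3; lmFit, eBayes with a trend) on log2(FPKM + 1), which understates changes of low values, for the 11677 genes whose mean reached 1 FPKM, with Benjamini-Hochberg adjustment over all of them. Each fit held only the groups compared. Sums, shares and correlations were computed in Python 3.11.15 (numpy 2.4.6, scipy 1.17.1). Permutation tests of them, and limma's p-values of the genes between the groups, were computed and are not given, since these comparisons use libraries of the contrasts that chose the genes or dogs chosen by level. The tests were tried on simulated data. Calls used an adjusted p under 0.05.

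The labels pair the 2 days of a dog. The deviations of both libraries from their group means correlated with a median of 0.504 (0.199 to 0.678, 14 dogs). As the study's comparisons name no dog term, the dog as a block was an alternative. The others were a pseudocount of 0.1, no filter, median-ratio scaling, quantile normalization, a filter at a mean of 5 FPKM, Minnesota only, and each dog left out.

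The genes and lists were chosen with earlier results of these data known. Named genes were both members and, by rule, those with the highest and lowest Spearman rho to each. Of fixed lists, 1 of 28 cell markers and 1 of 25 elongation symbols could be matched, through the 23 listed genes that the study gives a symbol, so the lists were not counted. A RefSeq gene table of another assembly (UU_Cfam_GSD_1.0, 43286 genes, 0 with an Ensembl identifier) could not be matched by identifier. By symbol it held 1 gene named EEF1A1, which was not on chromosome 3 or 4. Sequences and expression of other EEF1A copies were not analysed here.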

Additional observations from a re-analysis of the deposited data

Results flagged for a closer look

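The gap between the highest or lowest library and its nearest neighbor, as a share of the group's range, was computed for 24 sets of values (EEF1A1, ENSCAFG00000018586, their sum and the share of EEF1A1, in 4 groups and as the day differences in both arms). It passed Dixon's 95% limit in 11 sets. That limit is made for normally distributed values, of which chance alone would put about 1.2 of 24 sets past it. These values are skewed, share libraries and include those that chose the genes, so the number of sets does not measure an excess over chance. At Day 0 in the placebo group, MN08 stood apart for EEF1A1 (817 FPKM, gap 0.715 of the range) and for the sum (935 FPKM, gap 0.686). MN08 also stood apart in the EEF1A1 difference between days in placebo dogs (-813 FPKM, gap 0.926).

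At Day 4 in the valspodar group, PD05 stood apart for EEF1A1 (189 FPKM, gap 0.599) and for the share of EEF1A1 (99.9%, gap 0.789). MN02 stood apart for ENSCAFG00000018586 (774 FPKM, gap 0.553) and for the sum (778 FPKM, gap 0.609), as it did in the valspodar day differences of ENSCAFG00000018586 (694 FPKM, gap 0.584) and of the sum (693 FPKM, gap 0.570). PD03 stood apart in the day differences of EEF1A1 (-166 FPKM, gap 0.735) and of its share (-63.7 percentage points, gap 0.895).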

How the results depend on the processing

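The EEF1A1 difference between the days of valspodar dogs, the value tested, stayed below 0 and short of the adjusted threshold under every alternative run. The EEF1A1 difference between days in placebo dogs turned from -0.59 to 0.92 without MN08, and was -1.19 with the dog as a block, which leaves out PD04. The EEF1A1 difference between the groups' changes ranged from -1.23 (without MN08) to 0.88 with 1 dog left out, and was 0.88 with the block. That of ENSCAFG00000018586 was -0.036 with quantile normalization, ranged from -0.35 to 0.52 with 1 dog left out, and was below 0 without MN02, MN03, MN08, MN09, PD03 or PENN04. The block changed no call. The summed FPKM at Day 0 differed by -0.83 in all dogs and by -2.05 within Minnesota. With 1 dog left out, the difference in share at Day 4 ranged from -17.0 to 5.45 percentage points. Spearman rho between days then ranged from 0.82 to 0.96 for low EEF1A1, from -0.46 to 0.29 for the share (above 0 without MN02 or MN03), from -0.071 to 0.25 for ENSCAFG00000018586 (below 0 without PD05 or PENN04) and from -0.033 to 0.35 for the sum (below 0 without MN05 or MN07), and rho between the 2 genes at Day 0 from -0.05 (without MN03) to 0.38 and at Day 4 from 0.24 to 0.71 (without PD01). Over all genes, the number called was 1 in place of 0 within Minnesota at Day 0 and for the placebo days with no filter, and with 1 dog left out ranged from 0 to 1 for each (1 without PD04 and without PENN05). The causes were not tested. Depth in reads is unknown, so differences among values near 0 were not interpreted.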

Other observations

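NR4A2, an immediate early transcription factor on the study's valspodar list, was 6th of 11676 genes in Spearman rho with ENSCAFG00000018586 over the 29 libraries (rho 0.57) and was chosen after its values were seen. NR4A2 was at 79.5 FPKM in MN03 and 124 FPKM in PENN03 at Day 4. ENSCAFG00000018586 in the same libraries was 346 FPKM in MN03 and 106 FPKM in PENN03, so the library with the most NR4A2 was not among the 5 with high ENSCAFG00000018586. In MN02 at Day 4, where ENSCAFG00000018586 was highest, NR4A2 was at 3.06 FPKM.

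For the sum of the 2 genes, ENSCAFG00000011983 had the most similar pattern (rho 0.64) and ENSCAFG00000002116 the most opposite (rho -0.61) among 11675 genes.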
